A study of Homo sapiens with 10 samples.

Results

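The genes described here are 10 that mark goblet cells or other secretory cells of the colon epithelium: TFF1, TFF2, TFF3, SPINK4, AGR2, AGR3, MUC2, MUC13, REG4 and SPDEF. They were chosen by name, with earlier results of these data known. Each was read from the probe annotated to that gene alone, taking the probe with the highest mean where a gene had several. Of the 10 genes, 8 had such a probe, of 14232 genes with one in all. MUC2, the gel-forming mucin of intestinal mucus, had no probe of its own in the annotation used here. REG4, a secreted lectin-like protein, was annotated only to a probe shared with NBPF7P. AGR3 stayed under the filter for dim probes at a log2 level of 5.96, so 7 genes were tested.

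RNA was measured on 10 arrays from cultures of DLD-1, an established human colorectal cancer cell line. Clone 2, grown from a single cell with the LMNB1 hairpin construct V2LHS_62675, gave 3 arrays, and construct V2LHS_62673 gave clones 8, 9 and 12, each a single cell clone with 1 array. The controls were untransfected wild type cells with 1 array and 3 clones with an empty vector, 1 array each. All cultures but the wild type were kept under puromycin. LMNB1 encodes lamin B1, which forms filaments that line the inner nuclear membrane. V2LHS_62675 is known here from 1 clone, so anything particular to that clone and anything particular to the construct cannot be told apart. The titles of the V2LHS_62675 arrays give clone 12, while the descriptions and the design text give clone 2, which was followed. All levels are of whole cultures, in which fewer cells making an RNA and less of it per cell cannot be told apart.

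Goblet cells fill the gut lumen with mucus. Gel-forming mucins are folded and linked by disulphide bonds in the endoplasmic reticulum, for which AGR2 is needed in mice, and are secreted together with trefoil peptides, which stabilise mucus and help the epithelium to close over injuries. MUC13 is different in kind: it is a mucin anchored in the cell membrane, found on the apical surface of gut epithelium. In mice, the transcription factor SPDEF acts late in the maturation of goblet and Paneth cells, downstream of ATOH1.

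The LMNB1 probe, which is shared with PCIF1, read 7.72, 7.72 and 7.56 on the arrays of clone 2 and 7.79, 7.70 and 7.45 in clones 8, 9 and 12, against 9.52 in wild type cells and 8.93, 9.17 and 8.84 in the empty vector clones. The knockdown clones therefore lay below all controls at the targeted gene. Clone 8 gave an array unlike the others: it correlated with them at 0.915 to 0.926, while the other 9 correlated with each other at 0.986 to 0.994. Against the empty vector clones its median shift was 0.46 for the dimmest probes, which include AGR3 (5503 probes). It was 0.53 for probes of low to middle level, where TFF2, SPINK4 and SPDEF lie (5503 probes). For those of middle to high level, which include TFF1 and MUC13, it was 0.21 (5502 probes). For the brightest, which include TFF3 and AGR2, it was -0.44 (5503 probes). The corresponding shifts of clones 9, 12 and 2 and of wild type cells stayed between -0.02 and 0.08. Leukocyte markers were highest in clone 8 for 5 of 5 genes (mean level 6.22 in clone 8, against 5.599 to 5.83 on the other arrays) and fibroblast markers for 5 of 6 (6.65 against 5.93 to 6.13). Endothelial markers were so for 4 of 4 (6.31 against 5.61 to 5.81) and tuft cell markers for 7 of 8 (6.67 against 5.999 to 6.16). The same held for 9 of 11 enteroendocrine, 9 of 12 absorptive and 6 of 7 Paneth genes, so it was not particular to 1 cell type. Many of these genes are dim, where clone 8 was shifted upward as a whole. The share of all features highest in clone 8 was not counted. Colon epithelial markers lay within the range of the other arrays (9.32 in clone 8, 9.09 to 9.46 elsewhere), but single markers went both ways there: CDH17 and CDH1 were below all other arrays in clone 8 (8.93 against 9.74 to 10.59, and 10.43 against 11.08 to 11.46), KRT18, LGALS4 and CDX1 above all of them (10.35 against 9.40 to 9.80 for KRT18), and EPCAM within their range. These markers were chosen after their values were seen. The part of these shifts in the levels of single genes was not tested, so comparisons that use clone 8 are given with and without it. Array 1 of clone 2 correlated with arrays 2 and 3 of the same clone at 0.988 each, and those with each other at 0.994.

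Promoter sequences are shown for SPINK4, MUC13 and AGR2, on whose levels much of what follows turns. They are the 250 bases before the transcription start in RefSeq on GRCh38.p14, read 5′ to 3′ on the strand of the gene, with capitals for a TATAAA box.
SPINK4, chr9:33239917-33240166, plus strand: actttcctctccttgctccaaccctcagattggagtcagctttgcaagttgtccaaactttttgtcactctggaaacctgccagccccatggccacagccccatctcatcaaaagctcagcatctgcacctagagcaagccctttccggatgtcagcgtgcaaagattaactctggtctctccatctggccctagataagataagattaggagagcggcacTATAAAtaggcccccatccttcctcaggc
MUC13, chr3:124934752-124935001, minus strand: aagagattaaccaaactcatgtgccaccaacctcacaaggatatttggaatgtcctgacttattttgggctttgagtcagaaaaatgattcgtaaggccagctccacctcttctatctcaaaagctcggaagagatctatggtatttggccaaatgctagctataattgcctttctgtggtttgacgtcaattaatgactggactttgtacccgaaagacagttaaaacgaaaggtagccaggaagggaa
AGR2, chr7:16805000-16805249, minus strand: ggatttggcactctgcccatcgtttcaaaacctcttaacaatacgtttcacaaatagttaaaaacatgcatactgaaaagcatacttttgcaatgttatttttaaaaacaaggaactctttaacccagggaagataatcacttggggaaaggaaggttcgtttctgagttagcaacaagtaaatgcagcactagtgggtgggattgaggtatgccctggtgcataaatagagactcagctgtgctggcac
The SPINK4 window holds TATAAA at bases -29 to -24 from the start, a match that 10.7% of 35116 promoter windows have on either strand. The MUC13 and AGR2 windows hold none of the 6 motifs searched on both strands: TATAAA, the forkhead letters TGTTTAC and TATTTAC (2.98% and 2.39% of windows), the CDX letters TTTATT (16%), the E-box CACGTG (6.34%) and the GC box GGGCGG (42.6%). SPDEF holds TATTTAC on the reverse strand at bases -49 to -43, and AGR3 and REG4 each hold TATAAA at -31 to -26. Of the 10 genes, 7 were in the promoter table, and TFF1, TFF2 and TFF3 are named only. A match describes the letters and is not a mapped site.

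The genes varied between clones to very different degrees. Over the 7 clones and cultures other than clone 8, with the 3 arrays of clone 2 averaged, the log2 range was 1.78 for MUC13, 1.76 for TFF1, 1.62 for SPINK4, 1.34 for TFF3 and 0.82 for AGR2. It was 0.24 for SPDEF, and also 0.24 for TFF2 and 0.17 for AGR3, whose probes were dim. TFF2 passed the filter level of 5.96, which was applied to means with the arrays of clone 2 averaged. Over single arrays its mean was 6.02, and 5.95 without clone 8. The filter was set once with clone 8 included and not redone for the fits without it. TFF2 therefore stays among the 7 tested genes there. Small differences of this gene, like those of AGR3, therefore say little about it. The median over the 7 tested genes was 1.34, against 0.36 over all 11199 features tested. As the genes were chosen with earlier results of these data known, this gap is a description and not a test.

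**Figure D1:**
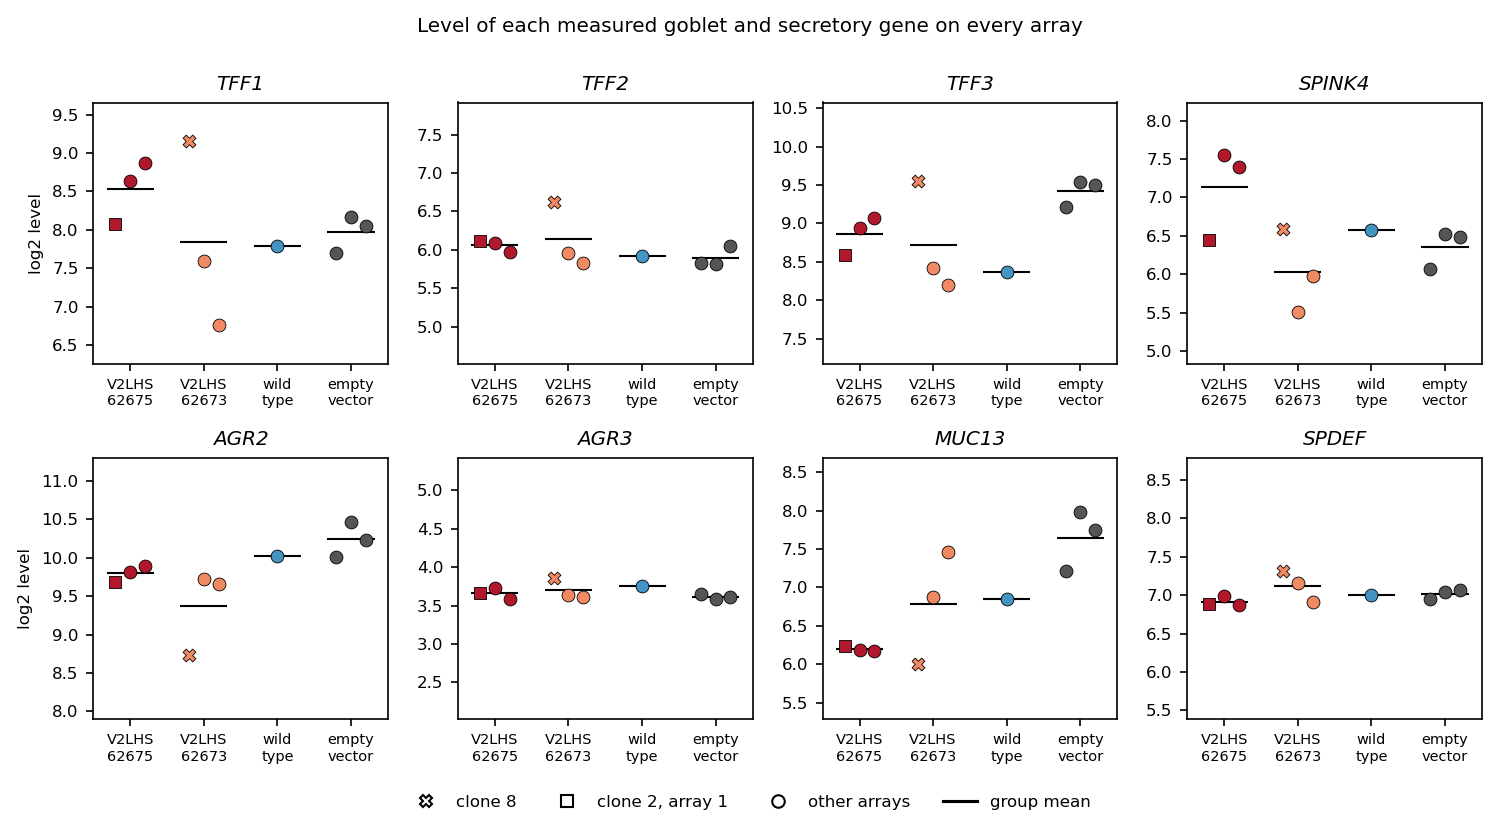
Log2 level of each of the 8 measured genes (panels) on every array, by group on the horizontal axis, with crosses for clone 8, squares for array 1 of clone 2, circles for all other arrays and a line at each group mean. Clone 8 is the highest array for TFF1, TFF2, TFF3, AGR3 and SPDEF and the lowest for AGR2 and MUC13; the vertical scale spans the same width in all panels but starts at a different level in each.

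Among the trefoil genes, TFF1 measured 8.07, 8.64 and 8.87 on the arrays of clone 2 and 9.15, 7.60 and 6.76 in clones 8, 9 and 12, against 7.79 in wild type cells and 7.70, 8.17 and 8.05 in the empty vector clones. TFF1 is a trefoil peptide best known from stomach mucus and from many epithelial cancers. Clones 9 and 12 lay below all controls, clone 12 by the most, and arrays 2 and 3 of clone 2 lay above all of them, while clone 8 was the highest array. TFF3 measured 8.59, 8.94 and 9.07 in clone 2 and 9.55, 8.42 and 8.20 in clones 8, 9 and 12, against 8.37 in wild type cells and 9.22, 9.54 and 9.51 in the empty vector clones. TFF3 is the trefoil peptide of intestinal goblet cells. All knockdown arrays but that of clone 8 lay below the 3 empty vector clones, and so did the wild type. TFF2, the spasmolytic trefoil peptide of stomach and duodenal glands, measured 6.11, 6.09 and 5.97 in clone 2 and 6.62, 5.96 and 5.83 in clones 8, 9 and 12, against 5.92 in wild type cells and 5.83, 5.82 and 6.05 in the empty vector clones. Its groups overlapped, and its levels lay close to the filter level.

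SPINK4, a Kazal-type inhibitor family member secreted by goblet cells, measured 6.45, 7.56 and 7.395 in clone 2 and 6.59, 5.51 and 5.98 in clones 8, 9 and 12, against 6.58 in wild type cells and 6.07, 6.53 and 6.48 in the empty vector clones. Arrays 2 and 3 of clone 2 stood above every other array, but array 1 of the same clone lay among the controls, at -1.03 relative to the mean of arrays 2 and 3. For TFF1 that difference within clone 2 was -0.69, and for TFF3 -0.41. MUC13 showed no such gap: it measured 6.23, 6.19 and 6.17 on the arrays of clone 2 and 6.004, 6.88 and 7.46 in clones 8, 9 and 12, against 6.85 in wild type cells and 7.21, 7.98 and 7.75 in the empty vector clones. All arrays of clone 2 and clone 8 lay below all controls, and clones 9 and 12 lay within the range of the controls.

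AGR2, the disulphide isomerase, measured 9.69, 9.82 and 9.90 in clone 2 and 8.74, 9.72 and 9.65 in clones 8, 9 and 12, against 10.02 in wild type cells and 10.01, 10.47 and 10.24 in the empty vector clones. Every knockdown array lay below every control array. AGR3, its neighbour and close relative on chromosome 7, stayed between 3.59 and 3.86 on all 10 arrays, under the filter level. SPDEF, the transcription factor, measured 6.88, 6.99 and 6.87 in clone 2 and 7.31, 7.15 and 6.92 in clones 8, 9 and 12, against 7.01 in wild type cells and 6.95, 7.04 and 7.07 in the empty vector clones, with all groups overlapping. The shared REG4 probe read 5.81, 5.76 and 5.70 in clone 2 and 6.14, 5.82 and 5.85 in clones 8, 9 and 12, against 6.08 in wild type cells and 5.78, 5.62 and 5.81 in the empty vector clones, and cannot be assigned to REG4.

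Tests were fitted over all features with limma, with clones as samples and a Benjamini-Hochberg adjusted p of 0.05 as the threshold. With all clones, none of the 7 genes passed in any of 5 comparisons, and nor did any other feature (0 of 11199, 0% in each). At an unadjusted p under 0.05, MUC13 was the 1 gene of 7 for V2LHS_62675 against the empty vector clones (296 features, 2.64%), AGR2 the 1 gene for V2LHS_62673 against them (359 features, 3.21%) and SPINK4 the 1 gene for V2LHS_62675 against V2LHS_62673 (249 features, 2.22%). No gene was below that p for wild type against empty vector (290 features, 2.59%), and AGR2 and MUC13 were below it for all knockdown clones against all controls (256 features, 2.29%). What these p-values measure is variation from clone to clone. Clone 2 and wild type cells count as 1 sample each and are assumed to vary like the other groups. The comparisons with the empty vector share its clones.

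With construct V2LHS_62673 against the empty vector, TFF3 was the gene that passed once clone 8 was left out. Relative to the empty vector mean of 9.42 ± 0.18 (SD, n = 3), clones 9 and 12 stood at -0.999 and -1.22. Wild type cells, which carry no hairpin, stood at -1.06, so the lower level was not particular to the construct. The log2 difference was -1.11 (SE 0.12, 95% interval -1.38 to -0.84), which put TFF3 at 46.3% of its empty vector level, with an adjusted p of 0.00411 (limma). TFF3 was the 1 gene of 7 that passed, and over all features 0.688% passed as lower. With clone 8 included, itself at 0.13 relative to the empty vector mean, the difference was -0.70 (SE 0.34, adjusted p 0.742). Leaving out empty vector clone 2 or 3 as well gave an adjusted p of 0.0528 or 0.111, so the call rests on those clones too.

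The other genes moved less in clones 9 and 12. TFF1 differed by -0.79 (SE 0.21, adjusted p 0.106, limma), SPINK4 by -0.61 (SE 0.16, adjusted p 0.106), AGR2 by -0.55 (SE 0.13, adjusted p 0.0719) and MUC13 by -0.48 (SE 0.21, adjusted p 0.305). TFF2 and SPDEF differed by 0.00 and 0.01. With clone 8 included the differences were -0.14 for TFF1 (adjusted p 0.908), -0.33 for SPINK4, -0.87 for AGR2 and -0.87 for MUC13 (adjusted p 0.742 each), so clone 8 moved each of these by over 1.5 times. TFF1, TFF3, SPINK4 and AGR2 were lower in both clones than in every empty vector clone, 4 of 7 genes beside 17.3% of all features. With clone 8 included this held for AGR2 alone, beside 7.95%. Without clone 8, all 10 general colon epithelial markers tested had a negative difference with V2LHS_62673, with a median of -0.14 and 0 called, against a median of 0.00 over all features, and their part in these differences was not tested. The difference of each clone from the empty vector mean was -0.37 in clone 9 and -1.21 in clone 12 for TFF1. For SPINK4 it was -0.84 in clone 9 and -0.37 in clone 12, and for MUC13 -0.77 in clone 9 and -0.19 in clone 12, so the clone that lay further from the empty vector differed from gene to gene.

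With construct V2LHS_62675, MUC13 was the gene that passed in the fit without clone 8. Relative to the empty vector mean of 7.65 ± 0.39 (SD, n = 3), clone 2 stood at -1.45, or 36.6% of that level, and its 3 arrays at -1.41, -1.46 and -1.48. Wild type cells stood at -0.79. In the fit without clone 8 the interval was -2.04 to -0.86 and the adjusted p was 0.0193 (limma), and 2.21% of all features passed in that direction. With clone 8 the same difference had an SE of 0.54 in place of 0.27 and did not pass (adjusted p 1.00). Without empty vector clone 2 or 3 as well the adjusted p was 0.0763 or 0.115, with differences between -1.67 and -1.29 over the clones and arrays left out.

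SPINK4 and TFF1 went the other way in clone 2. SPINK4 was higher than in the empty vector clones by 0.78 (SE 0.21, adjusted p 0.0660, limma) and TFF1 by 0.55 (SE 0.27, adjusted p 0.315), so neither passed. Without array 1 of clone 2 in addition, SPINK4 was higher by 1.12 and passed (adjusted p 0.00981), and TFF1 by 0.78 (adjusted p 0.1003); 5.49% of all features passed as higher than empty vector in that fit. TFF3 differed by -0.55 (adjusted p 0.0740) and AGR2 by -0.44 (adjusted p 0.164), TFF2 by 0.16 (adjusted p 0.679) and SPDEF by -0.11 (adjusted p 0.839). TFF3, AGR2 and MUC13 were lower on every array of clone 2 than in every empty vector clone, 3 of 7 genes beside 13.6% of all features.

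**Figure D2:**
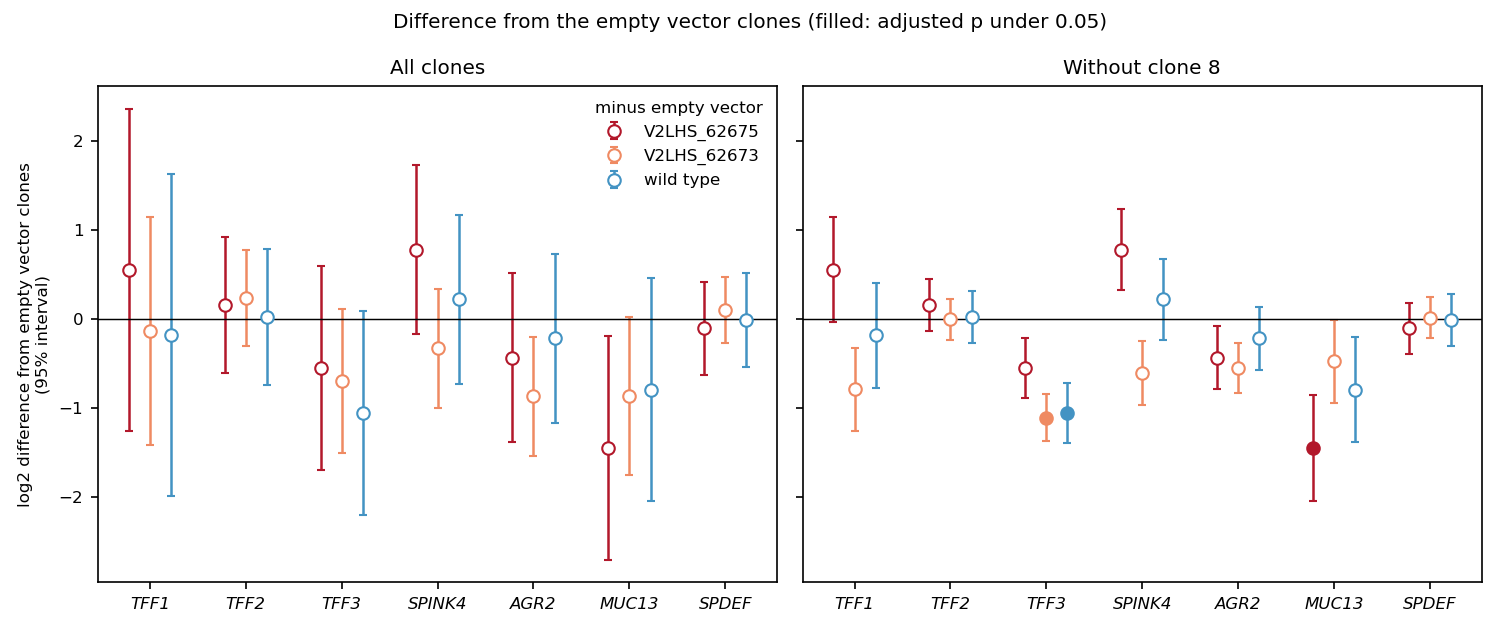
Log2 difference from the empty vector clones for the 7 tested genes, with 95% intervals from limma, for V2LHS_62675, V2LHS_62673 and wild type cells, with all clones (left) and without clone 8 (right); filled points passed at an adjusted p of 0.05. No point is filled with all clones; without clone 8, TFF3 is filled for V2LHS_62673 (-1.11) and wild type (-1.06) and MUC13 for V2LHS_62675 (-1.45).

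The clones of both constructs were compared directly. Without clone 8, TFF1 was higher with V2LHS_62675 than with V2LHS_62673 by 1.35 (SE 0.28, 95% interval 0.72 to 1.97, adjusted p 0.0411, limma), a 2.54-fold difference. SPINK4 was higher by 1.39 (SE 0.22, interval 0.90 to 1.87, adjusted p 0.0177), 2.61-fold. These were 2 of 7 genes, and 0.929% of all features passed as higher. Of the 10 colon epithelial markers 9 were higher with V2LHS_62675 than with V2LHS_62673, with a median of 0.20 and 1 called, and their part in the TFF1 and SPINK4 differences was not tested. The test sets 1 clone against 2, so it compares these clones and cannot separate construct from clone. With clone 8 the differences were 0.69 for TFF1 (SE 0.77) and 1.11 for SPINK4 (SE 0.40), both with an adjusted p of 0.931. The SPINK4 call was kept in 6 of 7 fits that left out a further clone or array and missed without empty vector clone 3 (adjusted p 0.0713). The TFF1 call was kept in 3 of 7 and missed without empty vector clone 2 or 3 (0.0872 and 0.116) and without array 2 or 3 of clone 2 (0.0618 and 0.0921).

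The remaining genes did not pass between the constructs. MUC13 differed by -0.97 (interval -1.60 to -0.34, adjusted p 0.113, limma) and TFF3 by 0.56 (interval 0.20 to 0.91, adjusted p 0.111). Without array 1 of clone 2 in addition, TFF3 was higher by 0.69 and passed (adjusted p 0.0258), with TFF1 and SPINK4, 3 of 7 genes beside 5.58% of all features. The interval was -0.26 to 0.49 for AGR2, -0.15 to 0.47 for TFF2 and -0.42 to 0.19 for SPDEF. LMNB1 itself differed by 0.10 between the constructs (interval -0.27 to 0.46).

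**Figure D3:**
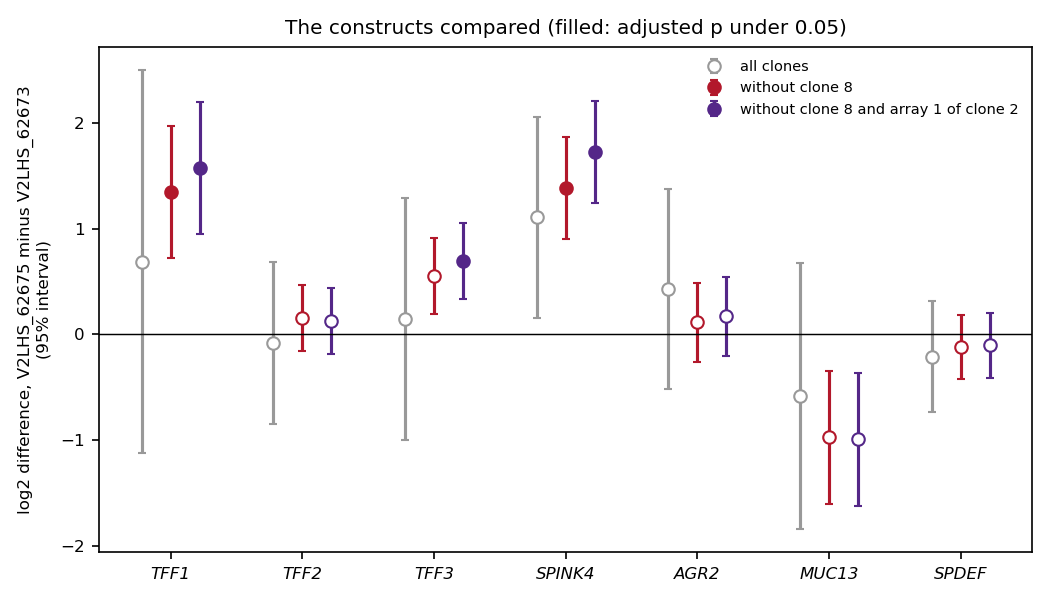
Log2 difference V2LHS_62675 minus V2LHS_62673 for the 7 tested genes with 95% intervals from limma, for all clones, without clone 8, and without clone 8 and array 1 of clone 2; filled points passed at an adjusted p of 0.05. TFF1 and SPINK4 are filled in both fits without clone 8, TFF3 in the last of them alone, and none with all clones.

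Wild type cells carried neither vector nor hairpin. TFF3 differed between wild type cells and the empty vector clones by -1.06 (SE 0.15, adjusted p 0.00926, limma) in the fit without clone 8, as far as in clones 9 and 12, with 1 of 7 genes called beside 1.89% of all features as lower. That call was missed without empty vector clone 2 or 3 (adjusted p 0.0526 and 0.0773) and with clone 8 (adjusted p 1.00). MUC13 differed by -0.79 (SE 0.27, adjusted p 0.129), AGR2 by -0.22 (adjusted p 0.544), SPINK4 by 0.22 (adjusted p 0.670) and TFF1 by -0.18 (adjusted p 0.826). For TFF3 and MUC13 the empty vector clones lay above the wild type as well as above clones 9 and 2. Clone 12 lay below them for TFF3 but above empty vector clone 1 for MUC13, and clone 8 was below them for MUC13 but the highest array for TFF3. Wild type cells differ from them in vector, puromycin and single cell cloning, which cannot be told apart.

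Over all knockdown clones against all controls, AGR2 was the gene whose groups did not overlap. It averaged 9.48 ± 0.50 in the 4 knockdown clones and 10.19 ± 0.22 in the 4 controls (SD), a difference of -0.71, with all 4 knockdown clones lower than all 4 controls. The exact two-sided permutation test gave p = 0.0286, the smallest that 70 regroupings allow, as 1 of 8 genes tested this way. Over all features 1.54% were lower in every knockdown clone, and AGR2 did not pass across all features (limma, adjusted p 0.761). Without clone 8 its difference was -0.46 (adjusted p 0.646). MUC13 averaged 6.63 ± 0.67 in knockdown clones and 7.45 ± 0.51 in controls (SD, n = 4 each, exact p = 0.143). TFF3 averaged 8.76 ± 0.59 in knockdown clones and 9.16 ± 0.55 in controls (exact p = 0.4), a difference of -0.40 that became -0.66 without clone 8 (limma, adjusted p 0.768) and also -0.66 without the wild type, where it did not pass either. For MUC13 the difference was -0.81, and -0.60 without clone 8 (adjusted p 0.808). TFF1 averaged 8.01 ± 1.05 in knockdown clones and 7.93 ± 0.22 in controls (exact p = 0.914). SPINK4, SPDEF, AGR3 and TFF2 had exact p between 0.229 and 0.914.

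The trefoil genes lie side by side on chromosome 21 in the order TFF3, TFF2, TFF1. Their differences were not compared with each other by a test. In clone 2, TFF3 differed from the empty vector clones by -0.55, TFF2 by 0.16 and TFF1 by 0.55. In clones 9 and 12 the differences were -1.11, 0.00 and -0.79, and of these 6 values only the -1.11 of TFF3 passed. The next gene beyond TFF1, TMPRSS3, a membrane serine protease, differed by -0.91 in clone 2 (adjusted p 0.0121, limma) and by -1.32 in wild type cells (adjusted p 0.00501), both past the threshold, and by -0.55 in clones 9 and 12 (adjusted p 0.0623), all without clone 8. ABCG1, UMODL1, ZBTB21 and RSPH1, the other tested neighbours, did not pass in these comparisons. TMPRSS3 was named after its values were seen. AGR2 lies beside AGR3, whose low level gave no test.

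MUC13 had the widest range, and the 5 genes whose pattern over the same 7 samples was most like it were ST3GAL5, GCA, PITPNC1, ABCC3 and IL4R. Their root-mean-square log2 difference from MUC13, each gene centred on its empty vector mean, was 0.24, 0.25, 0.26, 0.26 and 0.26, against a median of 0.74 over 11198 features. In clone 2 they stood at -0.97, -1.20, -1.27, -1.06 and -0.87 relative to the empty vector mean, in the same order of genes. The 5 were picked for likeness to MUC13 over these samples, so their low level in clone 2 follows from the choice and is no separate result. ABCC3 alone was lowest in wild type cells, at -1.16.

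Other genes of the secretory programme were read from lists of pathways and cell types, without clone 8 and against the empty vector clones. Over all features, 3.74% passed with V2LHS_62675, 0.991% with V2LHS_62673, 3.57% in wild type cells and 2.15% between the constructs. Among mucin-type O-glycan enzymes, which build the sugar chains of mucins, 0 of 24 tested genes passed with V2LHS_62675 and 0 of 24 with V2LHS_62673, with median differences of 0.03 and -0.10. The sialyltransferase ST6GALNAC2 differed by -0.81 and -1.05 without passing (limma, adjusted p 0.384 and 0.172), and its empty vector clones were apart, at 7.31, 8.37 and 8.69. C1GALT1C1, the chaperone of the core 1 synthase, differed by 0.49 in clone 2 (adjusted p 0.0700) and 0.15 in clones 9 and 12 (adjusted p 0.565). Array 1 of clone 2 was also left out after its values were seen, so that fit describes arrays 2 and 3 of 1 clone. There 3 of 24 passed as higher with V2LHS_62675, beside 5.49% of all features. They were C1GALT1C1 (0.62) and the GalNAc transferases GALNT3 and GALNT4 (0.52 and 0.43). Among other goblet and mucus products, 1 of 10 passed with V2LHS_62675 and 0 of 10 with V2LHS_62673. This was TSPAN8, a tetraspanin of epithelial cell membranes, higher in clone 2 by 0.80 (adjusted p 0.0103) and in wild type cells by 0.83 (adjusted p 0.0109), but by 0.01 in clones 9 and 12. REG1A, a secreted lectin of the same family as REG4, differed by -2.04 in clone 2 and -1.64 in clones 9 and 12 and did not pass (adjusted p 0.200 and 0.245): its empty vector clones were themselves apart, at 6.25, 9.03 and 8.94. KLK1, tissue kallikrein, differed by 0.44 in clone 2 (adjusted p 0.136) and 0.49 in clones 9 and 12 (adjusted p 0.0784). MUC1 and MUC4, membrane mucins and the only tested genes of their list, differed by between -0.11 and 0.04.

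Among regulators of the secretory lineage and the Notch pathway, 1 of 23 passed with V2LHS_62675 and 0 of 23 with V2LHS_62673. JAG1, a Notch ligand, fell by 0.71 in clone 2 (adjusted p 0.0210, limma), while in clones 9 and 12 it differed by 0.14 (adjusted p 0.582), and the constructs differed at JAG1 by -0.85 (adjusted p 0.0180). EHF, an epithelial ETS factor related to SPDEF, differed between the constructs by -1.12 without clone 8 (limma, adjusted p 0.0225). With clone 8 it did not pass. EHF measured 10.19, 9.63 and 9.60 in clone 2 and 8.66, 10.71 and 11.15 in clones 8, 9 and 12. Clone 8 lay below clone 2, unlike clones 9 and 12. ATOH1, the early factor of the secretory lineage, differed by 0.41 in clone 2 (adjusted p 0.279) and 0.11 in clones 9 and 12 (adjusted p 0.798). XBP1, a factor of secretory capacity, differed by -0.37 and -0.25 without passing. The list of disulphide isomerases and retention genes, read beside AGR2, also held ERN1 and ERN2, which are neither. Of its 12 tested genes, 1 passed with V2LHS_62675, the oxidase ERO1B (-0.67, limma, adjusted p 0.0423), and 0 with V2LHS_62673. The medians over the list were -0.14 and -0.10. In the fit that also left out array 1 of clone 2, chosen after its values were seen, 4 of 12 passed with V2LHS_62675. ERO1B, ERO1A and KDELR3 were lower (-0.70, -0.48 and -0.66) and PDIA4 was higher (0.52). In that fit 2 of 23 regulators passed, JAG1 and EHF, both as lower. These counts stand beside 402 of 11199 features that passed there as lower and 615 as higher. The retrieval receptor KDELR3 differed between the constructs by -0.54 without clone 8 (limma, adjusted p 0.0477) and did not pass with it. KDELR3 measured 10.88, 10.27 and 10.24 in clone 2 and 9.36, 11.02 and 10.99 in clones 8, 9 and 12. Clone 8 therefore lay on the other side, below clone 2.

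Outside the goblet genes, PLA2G2A, a secreted phospholipase of Paneth cells, changed more than any of the 7 tested genes. It measured 6.59, 6.43 and 6.25 in clone 2 and 7.07, 7.24 and 6.64 in clones 8, 9 and 12, against 7.15 in wild type cells and 9.01, 9.11 and 8.61 in the empty vector clones. Without clone 8 it fell by 2.48 with V2LHS_62675 (adjusted p 0.000741, limma) and by 1.97 with V2LHS_62673 (adjusted p 0.0013), and in wild type cells it differed by -1.76 (adjusted p 0.00777). All cultures but the empty vector clones were low. DEFA5, the other Paneth gene tested, differed by 0.03 and 0.13. Of 8 enteroendocrine genes 0 passed with V2LHS_62675 and 1 with V2LHS_62673, the secretory granule gene SCG5 (-0.57, limma, adjusted p 0.0267). SCG5 measured 7.16, 6.56 and 6.46 in clones 8, 9 and 12, against 7.01, 7.16 and 7.08 in the empty vector clones. Clone 8 thus lay at the empty vector level, and wild type cells were below it at 6.71. Of 5 absorptive genes none passed against the empty vector. VIL1, the brush border protein villin, was higher with V2LHS_62675 than with V2LHS_62673 by 0.68 (adjusted p 0.0391), the direction of TFF1 and SPINK4.

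**Figure D4:**
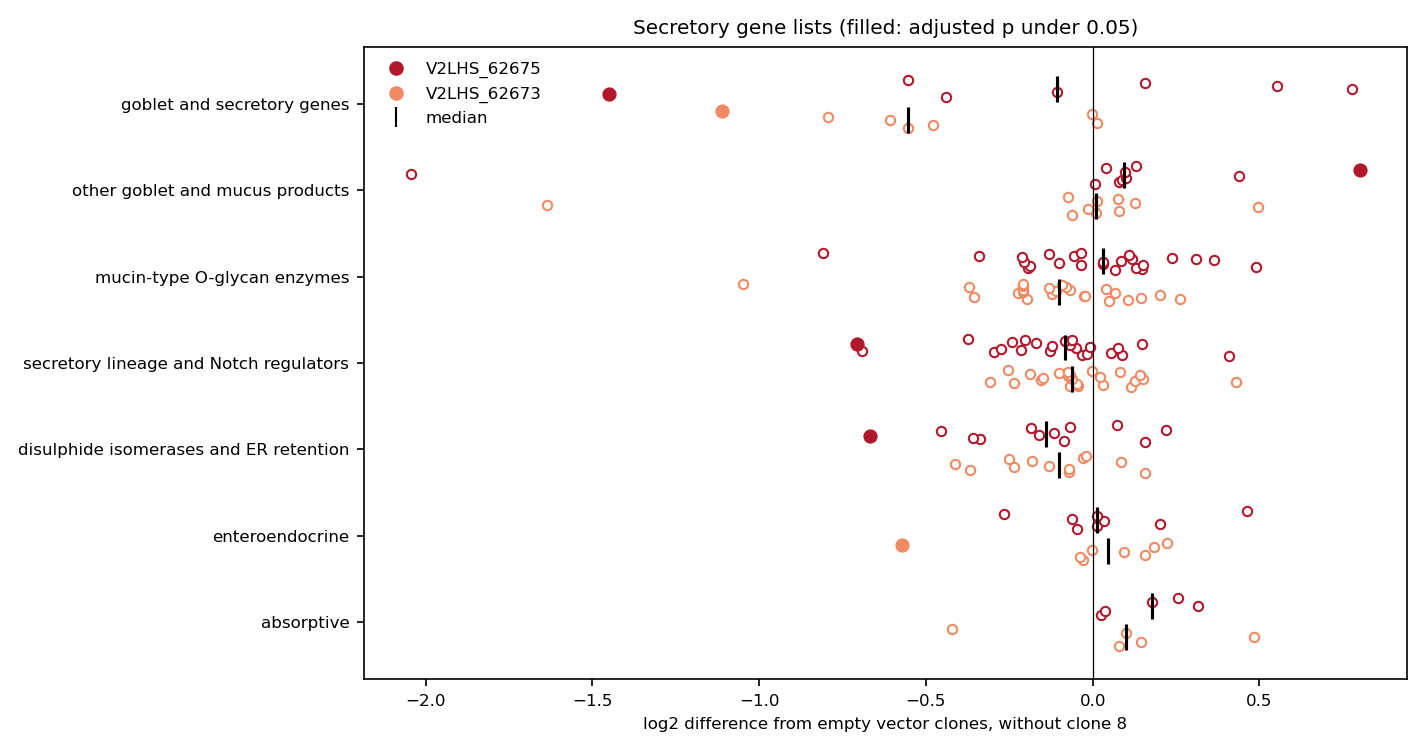
Log2 difference from the empty vector clones without clone 8 for each tested gene of 7 lists, V2LHS_62675 above V2LHS_62673 in each, with a bar at the list's median; filled points passed at an adjusted p of 0.05. The goblet and secretory genes spread from -1.45 to 0.78 with V2LHS_62675, and the O-glycan enzymes hold no filled point in this fit.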

How the data were processed

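The deposited table of the authors gives 1 log2 value for each of 22011 probes (transcript clusters) on each of 10 arrays; that the scale is log2 was inferred from their range, and how the authors normalized and summarised them is not given in the sources used here. Per the labels' protocols, Trizol RNA was cleared of ribosomal RNA and copied into biotinylated single-stranded cDNA for hybridisation. Values were used as deposited. Probes had 1 gene symbol (14432), several (2408) or none (5171) in the platform annotation; 14404 were matched to a reference gene table by gene identifier. A filter at the 25th percentile of probe means (5.96) removed the dimmest, which left 11198 genes and the shared LMNB1 probe.

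The 3 arrays of clone 2 were averaged, giving 8 samples. Groups were compared with limma 3.58.1 (lmFit, eBayes; R 4.3.3), two-sided; p-values were adjusted over all features after Benjamini and Hochberg; single genes also with exact permutation tests. Fits of 4 groups had 4 residual degrees of freedom, and 3 without clone 8. Alternatives were other scalings, filters, probe rules, priors and weights, every array as a sample, a replicate block, and leaving out clones or arrays. The number of arrays limits the precision. On simulated data with the same spread for every gene and no deviant clone, the fit recovered large known changes for V2LHS_62673 against the empty vector. The other comparisons and a clone like clone 8 were not simulated. Members and gene lists were chosen with earlier results of these data known. All 10 members are named, and 5 genes alike in pattern to the member with the widest range. From each list, the plan was to name up to 3 genes with the smallest p for each construct and any that passed. Only part of these are named. Those left out, ERN2, FOXA3 and GCNT1 among them, did not pass with all clones or without clone 8. Promoters came from RefSeq (GRCh38.p14). No protein sequences were compared.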

Additional observations from a re-analysis of the deposited data

Results flagged for a closer look

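AGR2 in clone 8 stood at a log2 level of 8.74, apart from the other 3 knockdown clones at 9.65 to 9.80. The gap was 0.861 of the range of the group, beyond the limit for 4 samples. Of 16 groups looked at this way it was the only such sample, and chance marks about 1 in 20. Clone 8 stood apart over the whole array, and the part of this in AGR2 was not tested.

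The difference between the clones of the constructs passed its own test for a pair of genes when clone 8 was left out: V2LHS_62675 minus V2LHS_62673 was 1.35 for TFF1 and 1.39 for SPINK4. With clone 8 neither passed. V2LHS_62675 is 1 clone, so construct and clone cannot be told apart.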

How the results depend on the processing

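With all clones no feature passed in any of the 5 comparisons, and the counts under other settings were as follows, in the order V2LHS_62675 against empty vector, V2LHS_62673 against empty vector, V2LHS_62675 against V2LHS_62673, and wild type against empty vector. Array quality weights gave 472, 338, 371 and 479 features, and every array as its own sample gave 59, 6, 15 and 0. Leaving out clone 8 gave 419, 111, 241 and 400; with quantile normalization added, 282, 27, 153 and 203; with array 1 of clone 2 also left out, 1017, 111, 956 and 400. No filter gave 1 feature for wild type. Leaving out single clones or arrays, alone or beside clone 8, gave 0 to 706, 0 to 493, 0 to 277 and 0 to 746; the low ends without clone 8 were 70, 4, 69 and 18, each without empty vector clone 2 or 3. For all knockdown clones against all controls the counts were 1 with quantile normalization, 1 with a trended robust prior, 7 with array weights, 2 with every array a sample, 0 to 3 leaving out single samples (3 without wild type) and 19 without clone 8 and wild type together. Leaving out clone 8 together with another sample, array or scaling was chosen after seeing the data, as were the 6 arrays without a block.

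With the replicate block, 944 features passed for V2LHS_62675 against empty vector, and 1030 in the same 6 arrays without it, arrays being taken as samples. The deviations of same-numbered arrays correlated at r = 0.03, -0.15 and -0.23 for numbers 1, 2 and 3. The best partner of number 1 was number 1, while numbers 2 and 3 were best matched crosswise. With 3 arrays a group this cannot settle whether the numbers pair them.

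Signs turned mainly for genes near 0. For TFF2 in V2LHS_62673 against empty vector the difference was -0.00306 without clone 8 and array 1 of clone 2, -0.0615 without clone 8 under quantile normalization, and -0.0660 to 0.389 over samples left out. Between the constructs TFF2 was 0.0657 (quantile), 0.00703 (median centring), 0.129 (array weights), 0.131 (without clone 8 and array 1 of clone 2), 0.183 (without clone 8, quantile) and -0.233 to 0.223 over samples left out; in wild type it was -0.0227 to 0.0937, and over all knockdown clones -0.0109 without clone 8 under quantile normalization. SPDEF under quantile normalization was -0.00988 for V2LHS_62673 (-0.00129 without clone 8), 0.0281 for wild type (0.0281 without clone 8) and -0.0400 for all knockdown clones (-0.0420 without clone 8), and under median centring 0.0228 for wild type and -0.0122 for all knockdown clones. Over all knockdown clones SPDEF was -0.0265 without clone 8 and wild type and -0.0172 without clone 8 and array 1 of clone 2. Over samples left out SPDEF ranged from -0.106 to 0.210 for V2LHS_62673, -0.315 to 0.000631 between the constructs, -0.0512 to 0.0122 for wild type and -0.0230 to 0.108 for all knockdown clones. TFF3 between the constructs was -4.36e-05 under quantile normalization and -0.118 to 0.668 over samples left out. TFF1 for V2LHS_62673 ranged from -1.21 (clone 12 alone) to 0.401 (without clone 12). Over all knockdown clones TFF1 was -0.391 with array weights, -0.345 without clone 8 and wild type, -0.223 without clone 8 and array 1 of clone 2, -0.316 without clone 8 under quantile normalization and -0.299 to 0.497 over samples left out, and SPINK4 was 0.169 with every array a sample and -0.223 to 0.156 over samples left out. The cause was not tested.

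AGR2 in knockdown clones, MUC13 against empty vector with either construct, SPINK4 in V2LHS_62675 against either group and TFF3 against empty vector kept their sign in every setting run. The number of arrays, and 1 clone for V2LHS_62675, limit all of these.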
